A study of Mus musculus with 12 samples.

Results

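The Bcl2 family sets whether a cell keeps its mitochondria sealed or releases cytochrome c and dies by apoptosis. The genes described here are 10 members given by name, out of 24453 genes in the table of gene counts. They have 3 roles: *Bcl2*, *Bcl2l1* and *Mcl1* promote survival, *Bax* and *Bak1* are the effectors, and *Bcl2l11*, *Bid*, *Bbc3*, *Pmaip1* and *Bmf* are BH3-only members that promote death. As background, activated effectors open pores in the outer mitochondrial membrane, survival proteins hold the effectors and the BH3-only proteins in complexes, and BH3-only proteins relay stress signals by binding both classes. Most of this control acts on the proteins, through binding, cleavage and turnover, and transcript levels describe only the supply of each member. Fibroblasts that lack both effectors are known to resist most stimuli of the mitochondrial pathway.

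RNA was sequenced from 4 lines of C57BL6/J mouse embryonic fibroblasts (MEFs), each grown in 3 biological replicates, to ask how loss of the mitochondrial exoribonuclease PNPase, encoded by *Pnpt1*, alters gene expression. The untreated line TM6, immortalized with SV40 large T antigen, carries a *Pnpt1* gene flanked in part by loxP sites. The rho0 line came from TM6 cells kept for 3 weeks in ditercalinium, a DNA-binding drug that depletes mitochondrial DNA, at 750 ng/mL. The knockout lines PKO-1 and PKO-6 came from TM6 cells infected with an adenovirus that expresses Cre recombinase. The paper reports that the knockout clones had lost their mitochondrial DNA as well and did not respire. A comparison of a knockout clone with the untreated line thus cannot tell loss of PNPase from loss of mitochondrial DNA. The clones and the drug-treated line are alike in lacking this DNA. All 4 lines carry the genotype label *Pnpt1* neo-flox/neo-flox, and all grew in medium with uridine at 50 µg/mL. Each derived line grew from a single cell colony, so the spread between replicates is that between cultures of 1 clone, and an effect of the treatment cannot be told apart from a difference between clones. Large T antigen, which all lines share, binds p53, a transcription factor known to act on *Bbc3*, *Pmaip1* and *Bax*.

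Counts per library, after rounding, ran from 56696075 to 66533389 for TM6, with a median of 60589464. The rho0 libraries held 48899971 to 62222900, with 49539823 at the median. PKO-1 libraries held 47164832 to 54344390 (median 54007038), and those of PKO-6 held 53260380 to 67991336 (median 56466864). The ribosomal RNA precursor *Rn45s* took up 12.2% to 19.6% of a library. A normalized count is a count divided by the library's effective size, as scaled by edgeR's TMM method, relative to the mean library. The quasi-likelihood test of edgeR was applied to differences between lines over the 14026 genes with enough counts, and p was adjusted over all of them by the Benjamini-Hochberg method. A gene was called when its adjusted p was below 0.01 and its log2 fold change was above 0.5 in size. All 10 members passed the filter on low counts, with between 27 counts in the lowest library (*Bmf*) and 12670 in the highest (*Mcl1*). No member shared exon bases with another of the 24453 genes in the annotation, whereas 3334 genes did.

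The fibroblast label was compared with marker genes. Of 11 fibroblast markers, 10 passed the filter, *Fn1* was the most abundant over all libraries together (in TM6 it was *Col1a1*), and their summed normalized counts ran from 355800 in a PKO-6 library to 658600 in a PKO-1 library. *Thy1* was nearly absent in all 12 libraries, with at most 5 counts. *Pdgfra* averaged 341.8 ± 27.4 normalized counts for TM6, 81.6 ± 12.5 for rho0, 3225 ± 65.0 for clone PKO-1 and 414.6 ± 14.6 for clone PKO-6 (SD, n = 3). *Col1a1* (log2 fold changes -1.56, -0.89 and -2.25 in rho0, PKO-1 and PKO-6 against TM6) and *Pdgfrb* (-1.46, -1.22 and -2.18) fell in all 3 derived lines, *Fn1* rose in all 3 (1.07, 1.19 and 0.88), and *Col3a1* had -3.32, 0.56 and -3.86, each called. In PKO-1, *Pdgfra* (3.24), *Lum* (3.885) and *Dcn* (2.84) rose most of the list. *Dcn* rose in PKO-6 as well (2.52) and fell in rho0 (-1.63), and *S100a4* fell in rho0 (-1.92) and PKO-6 (-1.56). *Lum* fell in rho0, where it had no counts. *Vim* fell in rho0 (-0.57) and PKO-6 (-0.84), and *Col1a2* fell in PKO-6 (-1.28). The lines thus differed among themselves in fibroblast markers. Of 5 immune markers only *Cd68* passed the filter, and it rose in PKO-6 (log2 fold change 1.02, adjusted p = 2e-04, edgeR). The summed level was 73.6 to 200.7, and *Ptprc*, *Itgam*, *Adgre1* and *Cd3e* stayed at 3 counts or fewer. The 4 epithelial markers summed to 1.03 to 115.1, and most of the sum in PKO-6 was *Epcam*, which averaged 88.0 ± 14.7 there and 4.35 ± 1.37 in TM6. The 4 endothelial markers summed to 20.3 to 177.2, led by *Kdr* with 141.7 ± 11.7 in PKO-6 and 55.2 ± 14.1 in TM6, and *Kdr* fell in rho0 (log2 fold change -2.10) and PKO-1 (-1.32). The 4 skeletal muscle markers summed to 1.11 to 29.99, led by *Acta1*, which fell in rho0 (-3.80) and PKO-6 (-4.46), and the 3 adipocyte markers to at most 2.91, led by *Cfd*. Whether these differences in markers have a part in the results for a line was not tested. In RNA from whole cultures, fewer cells of a kind and less RNA per cell cannot be told apart.

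The targeted gene was examined before the members. *Pnpt1* (chromosome 11, 29130751 to 29161828, plus strand, GRCm38) had 2832, 3242 and 3319 normalized counts in the TM6 libraries, 5051, 5251 and 5510 in those of rho0, 1254, 1191 and 1276 in PKO-1 libraries, and 1897, 1720 and 2214 in PKO-6 libraries. Every PKO library was below every TM6 library, and every rho0 library was above them. The log2 fold change against TM6 was 0.75 in rho0 (adjusted p = 2.09e-06), -1.34 in PKO-1 (adjusted p = 1.25e-08) and -0.69 in PKO-6 (adjusted p = 5.53e-06) in edgeR. Cre removes exon 2 of 28, and counts per gene include reads from the other exons, so a remaining count does not measure intact transcript. PKO-1 was below PKO-6 by a log2 fold change of -0.65 (adjusted p = 1.92e-05, edgeR).

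Between TM6 and the derived lines, *Pmaip1* rose and *Bak1* fell in all 3 comparisons, *Bcl2* rose in both PKO clones, and *Bbc3* rose in rho0 and PKO-6. In rho0 against TM6, 5 of the 10 members were called, beside 42.1% of all tested genes. *Bbc3* and *Pmaip1* were the 2 called higher, beside 20.7% of tested genes, and *Mcl1*, *Bak1* and *Bmf* the 3 called lower, beside 21.4%. In PKO-1 against TM6, 4 members were called, beside 34.3% of tested genes, with *Bcl2* and *Pmaip1* higher (16.4% of tested genes were higher) and *Bak1* and *Bmf* lower (17.9% were lower). In PKO-6 against TM6, 5 members were called, beside 41.3% of tested genes. The 4 higher members were *Bcl2*, *Bcl2l1*, *Bbc3* and *Pmaip1*, beside 21.9% of tested genes, and *Bak1* was the 1 lower member, beside 19.4%. The share of members called was thus close to that of all tested genes in each of these comparisons, and the counts alone are not a result about the family. The median log2 fold change of the members was 0.01 for rho0, 0.12 for clone PKO-1 and 0.42 for clone PKO-6, where all tested genes had 0.02, 0.00 and 0.01. These 3 comparisons share the same TM6 libraries, so they are not independent of each other.

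**Figure D1:**
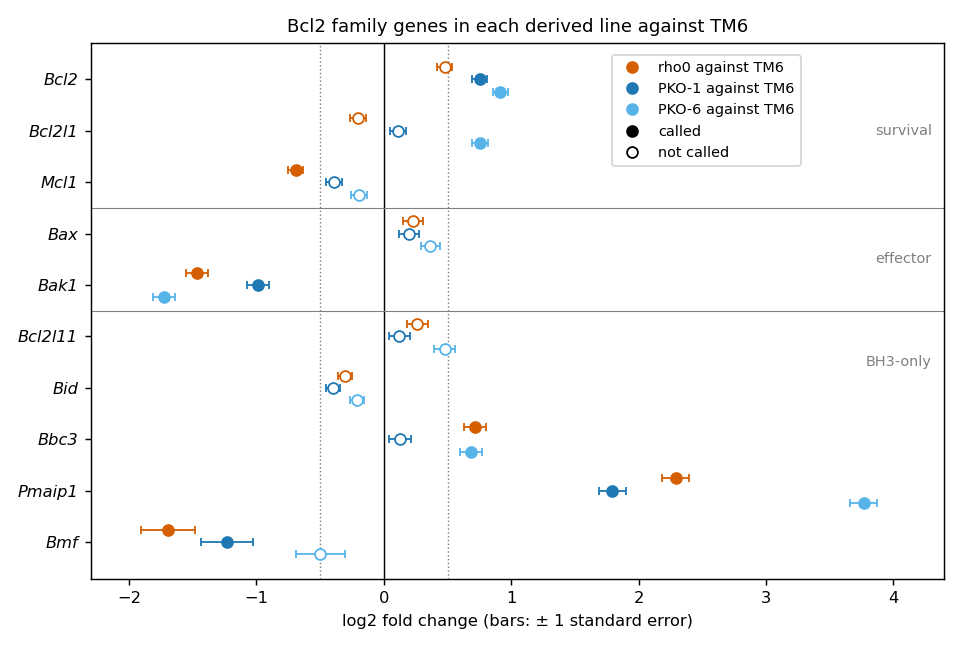
Log2 fold change of each member in rho0, PKO-1 and PKO-6 against TM6, with bars of 1 standard error. Filled points were called, dotted lines mark a log2 fold change of 0.5 in either direction, and *Pmaip1* in PKO-6 lies farthest to the right at 3.76.

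Among the survival members, *Bcl2* rose in both PKO clones. *Bcl2*, the founding member of the family (chromosome 1, 106538176 to 106714290, minus strand), had 1172, 1366 and 1360 normalized counts for TM6, 1780, 1868 and 1781 for rho0 and, for the clones, 2149, 2191 and 2223 (PKO-1) and 2427, 2408 and 2509 (PKO-6). No line's libraries overlapped those of another line, rising from TM6 through rho0 and PKO-1 to PKO-6. The log2 fold change against TM6 was 0.75 ± 0.0589 (standard error) in PKO-1 (adjusted p = 8.99e-08, edgeR) and 0.91 ± 0.0587 in PKO-6 (adjusted p = 7.36e-09). In rho0 it was 0.48 ± 0.0590 (adjusted p = 6.32e-06, edgeR), just under the threshold of size. Without TM6 replicate 2 or replicate 3 it was 0.51 and called. With an adjusted p alone, these were the 3 of 22 alternatives that called it. Over the alternatives *Bcl2* ranged from 0.37 to 0.51 in rho0, from 0.57 to 0.79 in PKO-1 and from 0.70 to 0.95 in PKO-6. The 792 tested genes of chromosome 1 had medians of 0.11, 0.18 and 0.21 in the same order. *Bcl2l1*, which encodes Bcl-xL (chromosome 2, 152758732 to 152831728, minus strand), had 2933, 2971 and 3065 normalized counts for TM6, 2842, 2496 and 2437 for rho0, 3288, 3143 and 3255 for clone PKO-1, and 5043, 5337 and 4766 for clone PKO-6. The PKO-6 libraries stood well above all others, while the rho0 libraries lay just below TM6 and the PKO-1 libraries just above. It rose in PKO-6 by a log2 fold change of 0.76 ± 0.0615 (adjusted p = 8.64e-08, edgeR), and the values in rho0 and PKO-1 were -0.21 ± 0.0620 and 0.11 ± 0.0617. Over the alternatives the PKO-1 value ranged from 0.07 to 0.19.

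*Mcl1*, a survival member with a protein of short half-life (chromosome 3, 95658721 to 95663178, plus strand), fell in rho0. It had 10950, 11390 and 11970 normalized counts for TM6, 6998, 6954 and 7269 for rho0 and, for the clones, 8929, 8404 and 8816 (PKO-1) and 9853, 9243 and 10890 (PKO-6). All libraries of the derived lines were below all TM6 libraries, with rho0 lowest, although the highest PKO-6 library came close to the lowest of TM6. The log2 fold change against TM6 was -0.69 ± 0.0618 in rho0 (adjusted p = 2.5e-07, edgeR). It was -0.39 ± 0.0616 in PKO-1 (adjusted p = 7.44e-05) and -0.19 ± 0.0614 in PKO-6 (adjusted p = 0.0119), and neither was called in edgeR. Over the alternatives the rho0 value ranged from -0.74 to -0.52. The 684 tested genes of chromosome 3 had a median log2 fold change of -0.17 in rho0. In every rho0 library, then, *Mcl1* was below its TM6 range and *Bcl2* above its own.

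The effectors differed from each other. *Bak1* (chromosome 17, 27019812 to 27028626, minus strand), whose protein sits in the outer mitochondrial membrane, had 6214, 6330 and 5907 normalized counts for TM6, 2508, 2038 and 2135 for rho0, 2974, 3216 and 3100 for clone PKO-1, and 1824, 2101 and 1660 for clone PKO-6. Each derived library had less than any TM6 library by a wide margin, PKO-1 was above the other derived lines, and PKO-6 overlapped rho0. It fell by 1.46 ± 0.0871 on the log2 scale in rho0 (adjusted p = 3.99e-09, edgeR), by 0.99 ± 0.0857 in PKO-1 (adjusted p = 2.46e-07) and by 1.72 ± 0.0877 in PKO-6 (adjusted p = 6.69e-10). The 715 tested genes of chromosome 17 had median log2 fold changes of 0.25, 0.20 and 0.19 in these comparisons. A median over the chromosome does not describe the region around *Bak1*, and the part of either in these values was not tested. *Bax* (chromosome 7, 45461695 to 45466898, minus strand), whose protein moves from the cytosol to mitochondria on activation, averaged 2606 ± 76.1 normalized counts for TM6, 3048 ± 333 for rho0 and, for the clones, 2985 ± 64.5 (PKO-1) and 3358 ± 308 (PKO-6) (SD, n = 3). Its derived libraries lay above those of TM6 but overlapped one another, and its log2 fold changes of 0.23, 0.20 and 0.37 were not called. Over the alternatives these values ranged from 0.09 to 0.26, from 0.08 to 0.22 and from 0.29 to 0.44.

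Of the BH3-only members, *Pmaip1*, which encodes Noxa, had the widest range of line means among the 10 genes, at 3.76 on the log2 scale. It lies on chromosome 18 (66458604 to 66465558, plus strand). *Pmaip1* had 179, 187.2 and 201.4 normalized counts for TM6, 969.6, 907.5 and 898.9 for rho0, 750, 601.7 and 618.5 for clone PKO-1, and 2490, 2333 and 2888 for clone PKO-6. The lines did not overlap, with TM6 lowest, then PKO-1 and rho0, and PKO-6 highest. It rose 4.9-fold in rho0 (log2 fold change 2.29 ± 0.105, adjusted p = 3e-10, edgeR), 3.47-fold in PKO-1 (1.79 ± 0.106, adjusted p = 5.1e-09) and 13.6-fold in PKO-6 (3.76 ± 0.106, adjusted p = 1.91e-12). The 382 tested genes of chromosome 18 had median log2 fold changes of 0.42 for rho0, 0.42 for clone PKO-1 and 0.34 for clone PKO-6 against TM6. With the median of each chromosome removed, *Pmaip1* had log2 fold changes of 1.87, 1.38 and 3.43 and was called in all 3 comparisons.

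*Bbc3*, which encodes Puma (chromosome 7, 16309583 to 16318334, plus strand), separated the lines in another way. It had 275, 286.6 and 271.2 normalized counts for TM6, 491.1, 422.2 and 453.4 for rho0 and, for the clones, 305.9, 285.4 and 318.5 (PKO-1) and 448.7, 468.4 and 419.8 (PKO-6). The rho0 and PKO-6 libraries overlapped each other and lay above all libraries of TM6 and PKO-1, which overlapped as well. The log2 fold change against TM6 was 0.72 ± 0.0867 in rho0 (adjusted p = 5.37e-06, edgeR), 0.13 ± 0.0882 in PKO-1 (adjusted p = 0.221) and 0.68 ± 0.0864 in PKO-6 (adjusted p = 7.86e-06). With glmTreat, which tests against a log2 fold change of 0.5, neither call was kept (adjusted p = 0.0111 in rho0 and 0.022 in PKO-6). Over the alternatives *Bbc3* ranged from 0.58 to 0.74 in rho0, from 0.01 to 0.17 in PKO-1 and from 0.61 to 0.72 in PKO-6. The 1014 tested genes of chromosome 7 had medians of 0.14, 0.12 and -0.03 in the same order. *Bmf*, whose protein binds survival members after loss of cell attachment (chromosome 2, 118528757 to 118549678, minus strand), rested on the least depth, with 27 to 160 counts per library. Its normalized counts were 138.3, 116.6 and 106.7 for TM6, 48.4, 29.9 and 32.4 for rho0, 41.7, 47.9 and 64.1 for clone PKO-1, and 90.1, 88.1 and 77.6 for clone PKO-6. TM6 was above every other library, PKO-6 was above rho0 and PKO-1, and those last lines overlapped. It fell in rho0 by 1.70 ± 0.211 on the log2 scale (adjusted p = 6.79e-06, edgeR) and in PKO-1 by 1.23 ± 0.204 (adjusted p = 0.000121), and in PKO-6 the value was -0.50 ± 0.192 (adjusted p = 0.0319). The PKO-6 value was -0.54 and called without rho0 replicate 1, and -0.53 and called (adjusted p = 0.00293, edgeR) with only TM6 and PKO-6 fitted and the replicate number as a block.

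The remaining BH3-only genes moved little. *Bcl2l11*, which encodes Bim (chromosome 2, 128126038 to 128162547, plus strand), averaged 582.5 ± 59.6 normalized counts for TM6, 698.3 ± 40.5 for rho0 and, for the clones, 633.4 ± 32.8 (PKO-1) and 811.4 ± 12.9 (PKO-6) (SD, n = 3). PKO-6 lay above all other libraries and PKO-1 overlapped TM6, and the log2 fold changes of 0.26, 0.12 and 0.48 against TM6 were not called. The PKO-1 value ranged from 0.07 to 0.20 over the alternatives. In PKO-6 the value was 0.53 and called without TM6 replicate 1, and 0.57 and called with chromosome medians removed. *Bid*, whose protein links the death receptors to mitochondria after cleavage by caspase-8 (chromosome 6, 120893119 to 120916820, minus strand), averaged 2053 ± 35.3 for TM6, 1664 ± 71.7 for rho0, 1559 ± 44.9 for clone PKO-1 and 1775 ± 105.3 for clone PKO-6. All of its derived libraries were below TM6. Its log2 fold changes of -0.30, -0.40 and -0.21 had adjusted p of 0.000201, 2.17e-05 and 0.00328 in edgeR but were below the threshold of size, except that the PKO-1 value was -0.61 and called with chromosome medians removed.

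**Figure D2:**
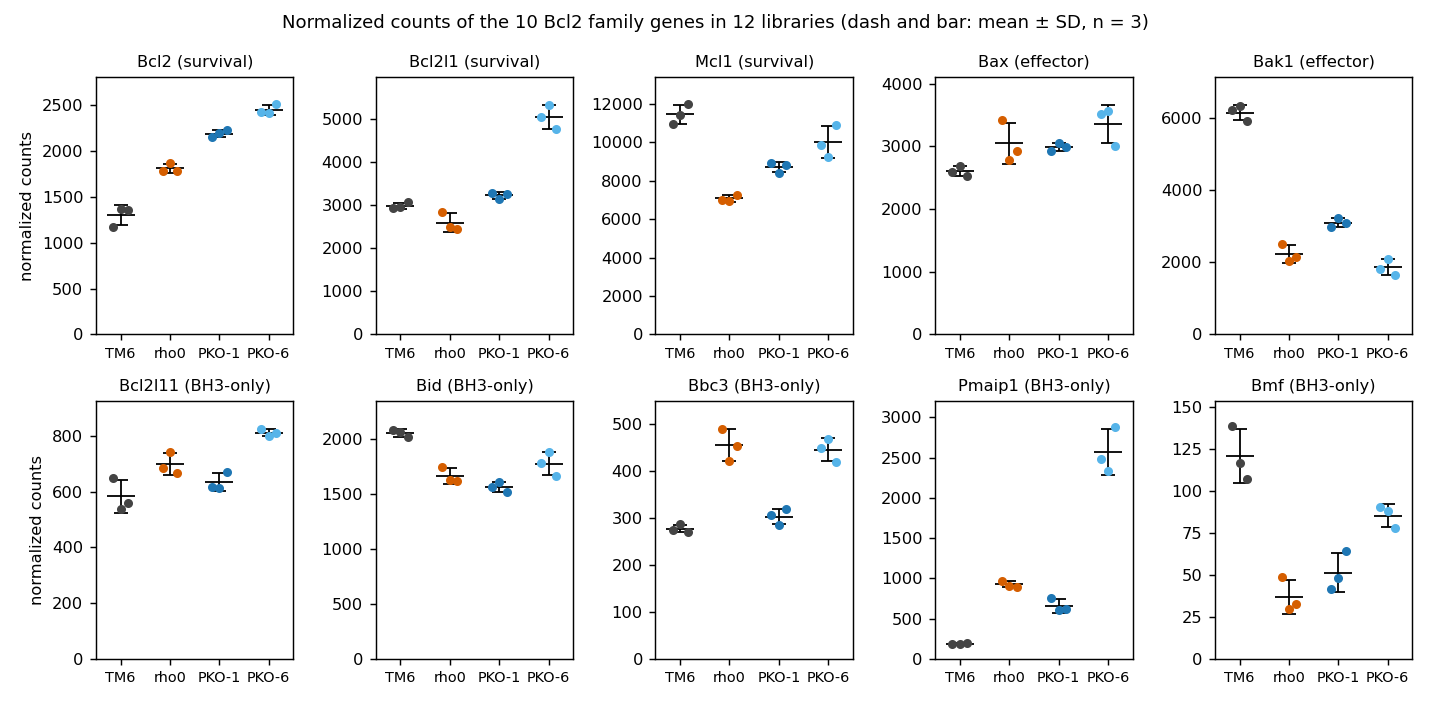
Normalized counts of the 10 members in the 12 libraries, 1 panel per gene, with the mean and SD of each line (n = 3). *Pmaip1* runs from 179 in a TM6 library to 2888 in a PKO-6 library, and *Bak1* is highest in the 3 TM6 libraries at 5907 to 6330.

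The derived lines were also compared with each other. PKO-6 had more RNA of a survival member and of 3 BH3-only members than PKO-1, and less of an effector. In all, these clones of the same deletion differed in 5 members, beside 29.1% of tested genes. *Bak1* was the 1 member higher in PKO-1 (log2 fold change 0.74 ± 0.0870, adjusted p = 6.25e-06, edgeR), beside 11.5% of tested genes. The 4 lower in PKO-1, beside 17.6% of tested genes, were *Pmaip1* at -1.97 ± 0.0953 (adjusted p = 8.12e-10, edgeR), *Bcl2l1* at -0.65 ± 0.0615 (adjusted p = 7.61e-07), *Bbc3* at -0.55 ± 0.0867 (adjusted p = 8.21e-05) and *Bmf* at -0.73 ± 0.207 (adjusted p = 0.00771). With glmTreat against 0.5 only the *Pmaip1* call was kept, beside 2448 of 14026 tested genes. The *Bmf* call was also lost with the replicate number as a block (adjusted p = 0.0127, edgeR) and without any of TM6 replicates 2 and 3, PKO-1 replicates 1 and 2, and PKO-6 replicates 1 and 2, with values from -0.60 to -0.73.

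PKO-6 against rho0 gave 3 called members, beside 21.5% of tested genes, and all 3 were higher in PKO-6, where 13.3% of tested genes were higher and 8.16% lower. They were *Pmaip1* (log2 fold change 1.47 ± 0.0929, adjusted p = 2.29e-08, edgeR), *Bcl2l1* (0.96 ± 0.0620, adjusted p = 2.84e-08) and *Bmf* (1.196 ± 0.214, adjusted p = 0.000376). *Mcl1* was at the threshold of size, with 0.50 ± 0.0617 (adjusted p = 1.53e-05, edgeR). Of 21 alternatives, 10 called it, among them an adjusted p alone, which sets no threshold of size, and glmTreat did not. PKO-1 against rho0 gave 1 called member, beside 32.7% of tested genes, and this was *Bbc3*, lower in PKO-1 by a log2 fold change of -0.59 ± 0.0870 (adjusted p = 5.08e-05, edgeR), where 17.6% of tested genes were lower and 15.1% higher. *Pmaip1* was just under the threshold of size in that comparison, at -0.50 ± 0.0956 (adjusted p = 0.000465, edgeR). Of 21 alternatives, 11 called it, again with an adjusted p alone among them, and glmTreat did not.

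In another fit both clones were pooled as 1 knockout group of 6 libraries. These are 3 cultures of each of 2 clones and not 6 independent clones, so p from this fit does not fully cover the difference between clones. Of the members, 3 were then called against TM6, beside 25.7% of tested genes. *Bcl2* (log2 fold change 0.83 ± 0.0739, adjusted p = 4e-06, edgeR) and *Pmaip1* (3.09 ± 0.590, adjusted p = 0.00113) were the 2 higher, beside 13.5%, and *Bak1* (-1.31 ± 0.197, adjusted p = 0.000209) was the 1 lower, beside 12.2%. All 6 PKO libraries lay on the same side of the TM6 libraries for these genes. That was also so for *Bcl2l1*, *Mcl1*, *Bax*, *Bid* and *Bmf*, which were not called. The share of all tested genes without such overlap was not counted, so this is not a result about the family. *Bcl2l1* and *Bbc3*, which differed between the clones, had pooled values of 0.47 ± 0.179 (adjusted p = 0.0478, edgeR) and 0.43 ± 0.170 (adjusted p = 0.0543).

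To compare genes with each other, levels were expressed as normalized counts per kilobase, in which the estimated counts of each transcript are divided by its effective length, the length over which a fragment can start. On this scale *Bax* had the highest level in TM6, at 3811 ± 104.3 per kilobase (SD, n = 3), followed by *Mcl1* at 3464 ± 160.3 and *Bak1* at 3385 ± 113.7. The libraries of *Mcl1* and *Bak1* overlapped, so their order within TM6 is not beyond the spread. *Bcl2l1* followed at 1277 ± 31.3 and *Bid* at 1203 ± 16.6, then *Bcl2* at 213 ± 12.7, *Bbc3* at 155 ± 4.44 and *Bcl2l11* at 142 ± 19.4, of which the last 2 overlapped. *Pmaip1* at 76.7 ± 4.78 and *Bmf* at 27.3 ± 3.57 were lowest. *Bax* stayed highest and *Mcl1* next in each derived line, and *Bmf* stayed lowest. *Pmaip1* moved from rank 9 of 10 in TM6 to rank 6 in rho0 (374.5 ± 14.3 per kilobase), rank 7 in PKO-1 (266 ± 34.1) and rank 4 in PKO-6. *Bak1* in rho0 was at 1224 ± 130.6 per kilobase, in the range of *Bcl2l1* at 1107 ± 84.0. In PKO-1 it was at 1706 ± 57.3, above *Bcl2l1* at 1369 ± 31.6. In PKO-6 *Bak1* was at 1022 ± 117, *Bid* at 1038 ± 55.3 and *Pmaip1* at 1040 ± 120.6 per kilobase, and these 3 overlapped, below *Bcl2l1* at 2137 ± 110.7.

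**Figure D3:**
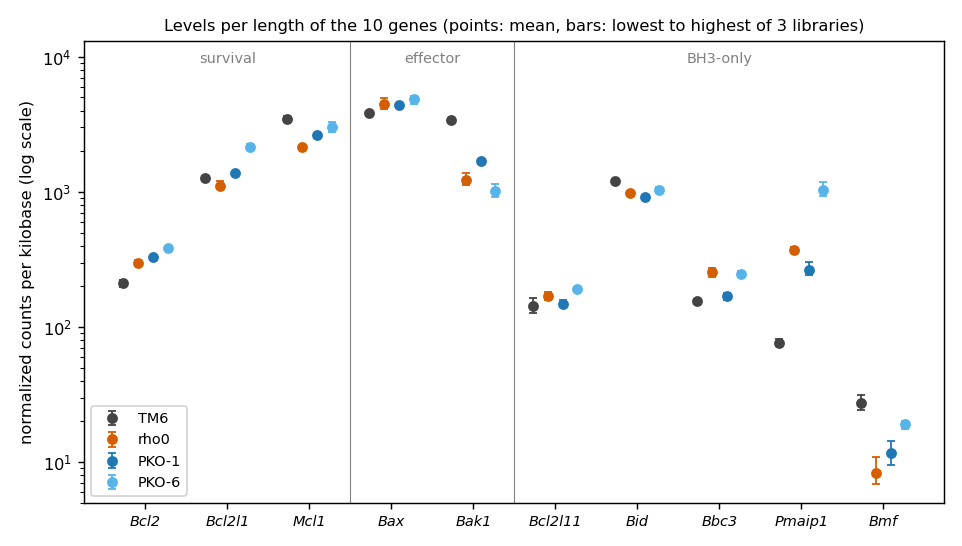
Levels of the 10 members in normalized counts per kilobase of effective length, on a log axis, with the mean (points) and the lowest to the highest of 3 libraries (bars) for each line. *Bax* is highest in every line, and *Pmaip1* goes from 76.7 in TM6 to 1040 in PKO-6.

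Summed within roles on the scale per kilobase, the survival members reached 4955 ± 200.4 for TM6, 3544 ± 57.6 for rho0, 4341 ± 123 for clone PKO-1 and 5547 ± 161 for clone PKO-6 (SD, n = 3). The lines did not overlap in this sum, with rho0 lowest and PKO-6 highest. The effectors summed to 7196 ± 209.7 for TM6, 5666 ± 561 for rho0 and, for the clones, 6080 ± 87.4 (PKO-1) and 5907 ± 474 (PKO-6), with the derived lines overlapping one another below TM6. The BH3-only members summed to 1604 ± 31.0, 1779 ± 60.3, 1510 ± 36.9 and 2539 ± 59.0 in the same order, with PKO-6 far above the rest. The effector sum divided by the survival sum was 1.45 ± 0.0851 for TM6, 1.60 ± 0.132 for rho0, 1.40 ± 0.0604 for clone PKO-1 and 1.07 ± 0.115 for clone PKO-6, and of the derived lines PKO-6 alone did not overlap TM6. The BH3-only sum divided by the survival sum was 0.324 ± 0.0193, 0.502 ± 0.0105, 0.348 ± 0.00736 and 0.458 ± 0.00325 in that order, with rho0 and PKO-6 above all TM6 libraries and PKO-1 overlapping TM6. These sums and ratios describe RNA, have no test, and do not measure proteins in complexes.

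The makeup of each role also shifted. *Bax* was 53.0% ± 0.448 of the effector level per kilobase for TM6, 78.4% ± 0.167 for rho0 and, for the clones, 72.0% ± 0.548 (PKO-1) and 82.7% ± 0.967 (PKO-6) (SD, n = 3). *Mcl1* was 69.9% ± 0.418 of the survival level for TM6, 60.4% ± 1.82 for rho0, 60.8% ± 0.380 for clone PKO-1 and 54.5% ± 3.15 for clone PKO-6. *Pmaip1* was 4.78% ± 0.387 of the BH3-only level for TM6, 21.0% ± 0.110 for rho0 and, for the clones, 17.6% ± 1.81 (PKO-1) and 40.9% ± 3.78 (PKO-6), where *Bid* was at 40.95% ± 3.05. In each case every derived library lay outside the TM6 range. The ratio of *Bax* to *Bcl2*, often quoted for this family, was 17.9 ± 0.922 for TM6, 15.1 ± 1.98 for rho0, 13.2 ± 0.146 for clone PKO-1 and 12.7 ± 1.16 for clone PKO-6 per kilobase. On this scale all derived libraries were below all TM6 libraries, although rho0 replicate 1, at 17.1, was just under the lowest TM6 value of 17.2. On counts not divided by length, rho0 overlapped TM6 (1.92 in that rho0 library and 1.86 in TM6 replicate 3). The ratio of *Bak1* to *Bax* was 0.888 ± 0.0160, 0.275 ± 0.00271, 0.390 ± 0.0106 and 0.209 ± 0.0142 in the same order, with no overlap between lines.

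The RefSeq annotation used for counting lists several transcripts for 4 members, and shares of their estimated counts are descriptions without a test. For *Bcl2*, the transcript with 2 exons, which encodes the membrane-anchored form, held 94.1% ± 1.37 of the counts for TM6, 94.4% ± 0.852 for rho0 and, for the clones, 97.6% ± 0.402 (PKO-1) and 96.1% ± 0.410 (PKO-6) (SD, n = 3). The PKO libraries were above all TM6 and rho0 libraries. For *Bcl2l1*, the 3-exon transcript of 2627 nt held 51.95% ± 1.29, 51.2% ± 4.49, 60.7% ± 4.89 and 60.7% ± 1.36 in that order, and the 5-exon transcript held at most 0.238% in any library. For *Bcl2l11*, the longest transcript of 5037 nt held 70.5% ± 1.62, 73.2% ± 0.685, 71.3% ± 9.50 and 72.1% ± 2.48, where rho0 lay above TM6 and every other pair of lines overlapped. For *Bmf*, the share of either transcript ran from 0% to 100% between libraries, so no split is given.

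The genes whose pattern was most like that of *Pmaip1*, the member with the widest range, were sought over the 12 libraries among 11204 genes. The closest 5 were *Isoc1* (Pearson r = 0.995, Spearman rho = 0.958), *Slc8a1* (r = 0.995, rho = 0.986), *Reep6* (r = 0.994, rho = 0.930), *Chchd10* (r = 0.994, rho = 0.937) and *Ezr* (r = 0.992, rho = 0.972). In all, 180 genes had an r above 0.95. The 12 libraries fall into 4 lines, so a high r mostly says that the line means stand in the same proportions, and no p is given. *Chchd10*, which encodes a mitochondrial protein, averaged 66.3 normalized counts for TM6, 754.3 for rho0, 394.5 for clone PKO-1 and 4472 for clone PKO-6. *Isoc1*, also on chromosome 18, averaged 1398, 3261, 2838 and 5461 in the same order.

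Genes that act beside the family were counted by list, without regard to how they moved. Among all tested genes, for comparison, 42.1%, 34.3% and 41.3% were called in rho0, PKO-1 and PKO-6 against TM6, with medians of 0.02, 0.00 and 0.01. Those called higher were 20.7%, 16.4% and 21.9%, and those called lower 21.4%, 17.9% and 19.4%. Of 16 other family members, 8 passed the filter, and the others had at most 13 counts in any library. Among the 8, 1 was called higher and 1 lower in each derived line against TM6, beside those shares, with median log2 fold changes of 0.26 for rho0, 0.05 for clone PKO-1 and -0.05 for clone PKO-6. None was called in the same direction in all 3. The genes called in any line were *Bik*, a BH3-only gene, with -1.205, -1.39 and 1.18, each called, *Bnip3* with 0.83 and 1.21 in rho0 and PKO-1, both called, and 0.07 in PKO-6, and *Bok* with 0.26, -0.40 and -0.84, called in PKO-6. Of 8 genes of the outer membrane and of protein stability, 3 were called in rho0, all lower, 2 in PKO-1, all lower, and 5 in PKO-6, 1 higher and 4 lower (beside 42.1%, 34.3% and 41.3% of tested genes), with medians of -0.35, -0.25 and -0.43. *Usp9x*, a deubiquitinase known to stabilize Mcl1 protein, fell in all 3 lines (log2 fold changes -1.01, -0.74 and -0.98). Also listed for protein stability, *Huwe1* had -0.40, -0.76 and -0.76 and was called in both PKO clones. *Fbxw7*, of the same list, went the other way with 0.20, 0.48 and 0.60 and was called in PKO-6.

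Of 16 apoptosome genes, caspases and their inhibitors, 1 was called higher and 7 lower in rho0, 1 and 4 in PKO-1, and 2 and 4 in PKO-6, with median log2 fold changes of -0.16, -0.18 and -0.11. Among all tested genes, 20.7%, 16.4% and 21.9% were called higher and 21.4%, 17.9% and 19.4% lower. *Aifm1*, a mitochondrial flavoprotein that can be released in cell death, had -1.66, -1.07 and -1.59, and *Xiap*, an inhibitor of caspases, had -0.83, -0.52 and -0.92 in rho0, PKO-1 and PKO-6. Both fell in all 3 lines. *Aifm1*, *Xiap*, *Usp9x* and *Huwe1* lie on chromosome X, where the 459 tested genes had median log2 fold changes of -0.75, -0.74 and -0.87. The part of that shift in these results was not tested.

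Of 8 genes of the death receptor arm, which reaches the family through *Bid*, 1 was called higher and 4 lower in rho0, 1 and 5 in PKO-1, and 1 and 4 in PKO-6, with medians of -0.39, -0.56 and -0.37. Of tested genes, 20.7%, 16.4% and 21.9% were higher and 21.4%, 17.9% and 19.4% lower. *Fas*, a death receptor, had log2 fold changes of -1.87, -1.59 and -0.62 in rho0, PKO-1 and PKO-6. *Tnfrsf1a*, the receptor for tumor necrosis factor, had -1.003, -0.56 and -0.67. Its adaptors *Tradd* and *Traf2* had -0.57, -0.57 and -1.03, and -0.76, -0.79 and -0.73. *Cflar*, an inhibitor of caspase-8, was the 1 gene called higher in each line, with 0.77, 1.07 and 1.34. These 5 genes are named because each was called in the same direction in all 3 lines. The other 3 of the list were mixed, with -0.21, -0.26 and 0.20 for *Tnfrsf10b*, 0.42, 0.02 and -0.12 for *Fadd*, and 0.09, -0.58 and 0.21 for *Ripk1*, of which only the *Ripk1* value in PKO-1 was called.

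Of 9 transcription factors known to act upstream of the family, 8 passed the filter, and *Trp73* had at most 1 count. The number called was 3 higher and 1 lower in rho0, 1 and 1 in PKO-1, and 5 and 1 in PKO-6 (42.1%, 34.3% and 41.3% of tested genes were called either way), with medians of 0.28, 0.11 and 0.77. None was called in the same direction in all 3, and all 8 are given next. *Ddit3* and *Atf4*, factors of the integrated stress response, had log2 fold changes of 2.18 (adjusted p = 4.13e-11, edgeR) and 1.02 (adjusted p = 1.17e-08) in rho0. They had 0.13 (adjusted p = 0.179, edgeR) and 0.08 (adjusted p = 0.283) in PKO-1, and 2.17 (adjusted p = 2.96e-11) and 1.18 (adjusted p = 2.3e-09) in PKO-6. They rose in rho0 and PKO-6, and a link to any member was not tested. *Foxo3*, another such factor, was called in PKO-6, with 0.15, 0.18 and 0.88 in the 3 lines. *Myc* had 0.97, 0.46 and 0.76, *Jun* 0.28, 1.01 and 0.78, and *Trp53* 0.28, -0.13 and 0.03, with no call for *Trp53*. *Foxo1* had -0.79, -0.07 and -0.41 and was called lower in rho0, and *E2f1* had -0.21, -0.70 and -0.58 and was called lower in both PKO clones.

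Promoter windows of the members were read for motifs of Atf4 with Ddit3, Jun, Foxo and Myc, a look-up chosen after the values were seen, and not for those of p53 or E2f1. The RefSeq windows (GRCm38.p6, 250 bases before to 50 after a transcript start) numbered 16 for 9 members, without *Pmaip1*, and 32851 for all genes. On either strand, TGATGNAA, the composite motif of Atf4 and Ddit3, was in 3.97% of all windows, and TGANTCA, the Jun motif, in 7.81%, and neither was in a window of a member. TGTTTAC, the Foxo motif, was in 3.65% of all windows and in 1 window each of *Bbc3* and *Bcl2l11*. CACGTG, the Myc motif, which reads alike on both strands, was in 7.15% of all windows, in 1 window of *Bax* with 2 matches and in another window of *Bbc3*. A match describes the letters and not a bound site, and a missing match says only that these letters are not in the window. The 3 windows shown are those with a Foxo match, which in *Bcl2l11* reads on the opposite strand, and the window with 2 Myc matches, 5′ to 3′ on the gene's strand, with the motif letters in capitals. The *Bbc3* window is at chr7:16310011-16310310 on the plus strand, inside the span of the transcript that was counted, the *Bcl2l11* window at chr2:128125788-128126087 on the plus strand, and the *Bax* window at chr7:45466849-45467148 on the minus strand.
Bbc3: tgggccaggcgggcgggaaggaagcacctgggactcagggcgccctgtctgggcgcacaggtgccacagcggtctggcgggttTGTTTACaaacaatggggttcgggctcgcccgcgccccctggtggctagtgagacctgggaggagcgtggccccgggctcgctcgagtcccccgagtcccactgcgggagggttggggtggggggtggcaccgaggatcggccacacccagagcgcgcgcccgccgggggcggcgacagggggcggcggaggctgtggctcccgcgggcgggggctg
Bcl2l11: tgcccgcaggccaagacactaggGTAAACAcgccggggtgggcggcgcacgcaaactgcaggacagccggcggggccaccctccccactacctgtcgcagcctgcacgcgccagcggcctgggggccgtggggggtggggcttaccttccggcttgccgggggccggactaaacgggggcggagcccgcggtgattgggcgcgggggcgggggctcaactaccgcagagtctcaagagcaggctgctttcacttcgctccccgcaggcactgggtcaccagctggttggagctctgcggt
Bax: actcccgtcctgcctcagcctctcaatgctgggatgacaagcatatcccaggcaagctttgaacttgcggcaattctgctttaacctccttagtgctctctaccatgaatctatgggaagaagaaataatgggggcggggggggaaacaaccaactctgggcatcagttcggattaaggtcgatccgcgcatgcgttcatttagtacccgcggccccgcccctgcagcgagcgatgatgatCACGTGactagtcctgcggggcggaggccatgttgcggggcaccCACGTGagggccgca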

How the data were processed

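Strand-specific, paired-end libraries were made by the authors from total RNA depleted of ribosomal RNA, with technical duplicates merged before alignment. The deposited values are estimated counts (expected counts), not normalized, which the authors made per the submitters' processing notes with bcl2fastq, Bowtie2 and RSEM 1.2.25 against RefSeq transcripts of GRCm38, per transcript and collapsed to genes. Decimals were present in 12.5% of the values per gene, and all were rounded to whole numbers. Genes were filtered with filterByExpr (minimum count 10), scaled by TMM and tested with glmQLFit and glmQLFTest in edgeR 4.0.16 (R 4.3.3), with the 12 libraries as 4 lines, or as 3 groups for the pooled clones. Biological coefficients of variation were 0.0837 and 0.248 in these fits. The standard error is the log2 fold change divided by the square root of F. The analysis was tested on simulated data, and no result of that test is given here. Levels per kilobase use the per-transcript estimated counts, divided by effective length, summed per gene and scaled as the counts were. No replicates of a line agreed within sampling noise (chi-square per gene 4.53 to 132), as a library deposited more than once would. Replicate numbers come from the titles. TM6 and PKO-6 libraries of the same number deviated together (correlation 0.14 to 0.20, other numbers -0.19 to 0.0043), so for these lines the numbers pair the samples by the rule that all 3 exceed 0.1, although libraries with other numbers reached 0.41 between other lines.

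The members and gene lists were chosen with earlier results of these data known. Named genes are the 10 members, *Pnpt1*, the genes of each list called in the same direction in all 3 comparisons with TM6 (at most 6 per list, by mean size of change) and the 5 genes most like *Pmaip1*. Outside this rule, *Bik*, *Bnip3*, *Bok*, *Huwe1*, *Fbxw7*, the upstream transcription factors, 3 further genes of the death receptor list and the marker genes were named with their values known. Alternatives were the DESeq2 1.42.0 Wald test, its size factors in edgeR, no filter, a replicate block, only the compared groups, both clones pooled, other thresholds, glmTreat, chromosome medians removed, counts not divided by length, and each library left out. Intervals and SDs on estimated counts cover neither mapping error nor differences between clones.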

Additional observations from a re-analysis of the deposited data

Results flagged for a closer look

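The knockout clones PKO-1 and PKO-6 differed from each other in 5 members, beside 29.1% of tested genes, by edgeR's test of the difference itself. As log2 fold changes of PKO-1 against PKO-6, these were *Bcl2l1* at -0.65, *Bak1* at 0.735, *Bbc3* at -0.55, *Pmaip1* at -1.97 and *Bmf* at -0.73. All 3 libraries of one clone lay on the same side of all 3 libraries of the other for each of these genes. The same held for *Bcl2*, *Mcl1*, *Bcl2l11* and *Bid*, which were not called, so it does not set the called members apart. How many of all tested genes lacked overlap between the clones was not counted, so it does not set the family apart either. Tested with glmTreat against 0.5, only *Pmaip1* stayed called, beside 2448 of 14026 tested genes. The adjusted p in glmTreat was 0.0216 for *Bcl2l1*, 0.0113 for *Bak1*, 0.367 for *Bbc3* and 0.194 for *Bmf*. The *Bmf* call was also lost with a replicate block (adjusted p = 0.0127, edgeR) and without any of 6 libraries. The cause was not tested, and with 2 clones a difference between clones cannot be told apart from their histories in culture.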

How the results depend on the processing

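Of 70 member values (10 members in 7 comparisons), 68 kept their direction and call with DESeq2's Wald test, 69 with DESeq2's size factors, 68 without the filter, 68 with only the compared groups, 66 with chromosome medians removed and 63 with glmTreat against 0.5. With each library left out, 812 of 840 values did. Counts of members called changed by more than 1.5 times as follows, mostly by the construction of the threshold. An adjusted p alone called 8 members in rho0 and 8 in PKO-6 against TM6, 6 in PKO-1 against rho0, 5 in PKO-6 against rho0 and 5 in the pooled clones. Of 14026 tested genes, it called 8707, 8549, 7561, 5704 and 4827 in the same order. A log2 fold change above 1 left 3 for rho0 and 2 for either clone against TM6. It left 1 between the clones and 0 in PKO-1 against rho0. In the latter comparison, 6 members had an unadjusted p below 0.05 in edgeR and 6 in DESeq2. Of 14026 tested genes, this larger threshold kept 2944 for rho0, 2274 for clone PKO-1 and 3038 for clone PKO-6 against TM6. Between the clones it kept 1950 genes, and 2202 when PKO-1 was set against rho0. glmTreat left 1 between the clones (*Pmaip1*) and 0 in PKO-1 against rho0 (0 at an unadjusted p below 0.05), and it also ended the calls of *Bbc3* in rho0 and PKO-6 against TM6. Of 14026 tested genes, glmTreat called 2448 between the clones and 2575 in PKO-1 against rho0. PKO-1 against rho0 gave 2 members in place of 1 with DESeq2's Wald test, its size factors, no filter, only the compared groups or chromosome medians removed, and 1 to 3 with a library left out. Among all genes, 4563, 4578, 4741, 4251 and 4178 were called in that order, and 4150 to 4908 with a library left out. These were out of 14026 tested genes, except 18752 without the filter, 13191 with only the compared groups and 14194 to 14294 with a library left out. *Pmaip1* crossed 0.5 there without TM6 replicate 1, rho0 replicate 2 or 3, PKO-1 replicate 1, or PKO-6 replicate 1 or 2 (-0.51 to -0.60), and *Bak1* without rho0 replicate 1 (0.55) or PKO-1 replicate 1 (0.51). *Mcl1* in PKO-6 against rho0 crossed 0.5 without the filter, with only the compared groups, and without TM6 replicate 2 or 3, rho0 replicate 3, any PKO-1 replicate or PKO-6 replicate 2 (0.50 to 0.54). DESeq2 also called *Bmf* in the pooled clones (-0.83). The sign changed only in values near 0 that were never called. *Bbc3* in PKO-6 against rho0 (-0.03) was 0.13 with chromosome medians removed and -0.095 to 0.011 with a library left out, positive without rho0 replicate 1 or PKO-6 replicate 3. *Bax* in PKO-1 against rho0 (-0.03) ranged from -0.097 to 0.046, positive without rho0 replicate 1. The cause was not tested. Not divided by length, *Bax* to *Bcl2* was 2.02 for TM6, 1.69 for rho0 and 1.37 for either clone, and rho0 replicate 1 (1.92) was above TM6 replicate 3 (1.86). Over all lines, 7 of 18 same-number pairs had a correlation of deviations over 0.1 (-0.30 to 0.20) and 5 of 12 libraries were closest to their own number, and TM6 with PKO-6 was the only pair of lines with all 3 over 0.1. A fit of these lines alone with the replicate block, added after seeing the data, called 6 members in place of 5, adding *Bmf* (-0.53), and changed no other call. That fit called 5966 of 13753 tested genes. In the fit of all lines a replicate block gave 5, 4 and 5 members in rho0, PKO-1 and PKO-6 against TM6, 1 and 3 in PKO-1 and PKO-6 against rho0, 4 between the clones and 3 pooled, and it changed no other call than that of *Bmf* between the clones (-0.72, adjusted p = 0.0127, edgeR, with 0.00302 to 0.194 over the alternatives). Of 14026 tested genes, the block gave 5849, 4761, 5776, 4524, 2952, 4027 and 3113 in the same order. RNA was purified with TriZol or with an RNeasy kit, and the labels do not say which was used for which sample.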
